A study of Mus musculus with 2 samples.

Results

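Pyruvate made by glycolysis enters mitochondria through a carrier and is then turned into acetyl-CoA by the pyruvate dehydrogenase complex. The genes described here encode that route and its control, and they were chosen by symbol: 10 of the 55536 mouse genes listed. Mpc1 and Mpc2 encode the mitochondrial pyruvate carrier, Pdha1, Pdhb and Dlat encode subunits of the complex, Pdk1, Pdk2, Pdk3 and Pdk4 encode the kinases that switch it off, and Pdp1 encodes the catalytic subunit of a phosphatase that switches it back on. All 10 symbols were matched. Total RNA was sequenced from the hearts of male B6CASTF1/J mice aged 4 days, the F1 offspring of C57BL/6J and CAST/EiJ parents, with 1 library per heart and 2 hearts in all. The labels give no treatment, and the 2 hearts form a single group, so no condition is compared here. The animals behind replicates 1 and 2 are numbered and recorded separately, yet the labels give them 1 shared donor entry. They are treated as separate animals. Should they be the same one, the spread reported would be technical.

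The carrier is a heterodimer of MPC1 and MPC2 in the inner mitochondrial membrane. The complex holds many copies of 3 catalytic parts: E1, made of alpha and beta chains (Pdha1 and Pdhb), E2 (Dlat), which carries lipoyl groups and forms the core, and E3 (Dld). The kinases bind the lipoyl domains of E2 and phosphorylate the E1 alpha chain, which stops flux from carbohydrate, and the phosphatases reverse this. The heart of a newborn moves from carbohydrate towards fatty acids as fuel, and PDK4 is known for rising with fasting and fatty acid use in heart and skeletal muscle.

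Replicate 1 held 31512596 expected counts assigned to mouse genes and replicate 2 held 35744013. Levels are TPM, an abundance scaled by transcript length and by library, and means are given with the SD over 2 hearts. Each library had been quantified by the authors in 2 ways, called here the first and the second quantification, and values are those of the first unless stated. All 8 heart muscle markers were expressed in both hearts. Red cell markers were over 2-fold lower in replicate 1 for 5 of 5 genes, with summed levels of 1405 TPM in replicate 1 and 5290 TPM in replicate 2. The 5 fibroblast markers were also lower in replicate 1, with summed levels of 931.2 TPM in replicate 1 and 1309 TPM in replicate 2. In tissue RNA, fewer cells of a type and less RNA per cell cannot be told apart.

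All 10 genes were expressed, meaning that each heart reached 1 TPM, against 53.9% of protein-coding genes. Their mean counts lay between 714.5 for Pdk3 and 21702 for Pdha1. The E1 chains led, the carrier genes and E2 followed, and Pdk3 and the phosphatase were lowest. In order of mean TPM the genes ran Pdha1, Pdhb, Mpc2, Mpc1, Dlat, Pdk4, Pdk2, Pdk1, Pdp1 and Pdk3. Of the 9 pairs of neighbours in that order, 4 had ranges over the 2 hearts that did not overlap: Pdhb over Mpc2, Pdk2 over Pdk1, Pdk1 over Pdp1, and Pdp1 over Pdk3. The ranges of the other 5 pairs, Pdha1 with Pdhb, Mpc2 with Mpc1, Mpc1 with Dlat, Dlat with Pdk4 and Pdk4 with Pdk2, overlapped. Read within each heart, 7 of the 9 pairs stood in the same order in both, and the exceptions were Mpc1 with Dlat and Pdk4 with Pdk2. The order differed in the second quantification, where by mean TPM Pdhb stood above Pdha1, Dlat above Mpc1 and Pdk2 above Pdk4. There 6 of the 9 pairs of neighbours had ranges that did not overlap.

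**Figure D1:**
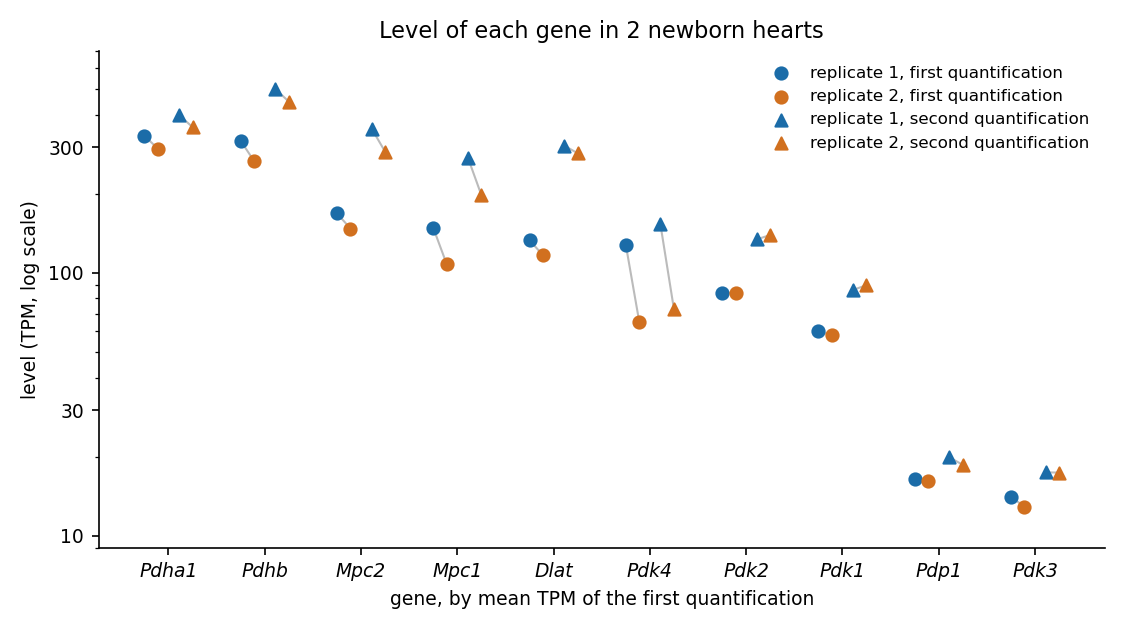
Level in TPM (log scale) of each gene in each heart, as circles for the first quantification and triangles for the second, with the values of the 2 hearts joined by a line. In the first quantification, levels of Pdk4 lie far apart between the hearts (128.10 TPM in replicate 1 and 65.18 TPM in replicate 2). Those of Pdk2 lie on top of each other there (83.82 and 83.75 TPM), and at 134.1 and 139.4 TPM in the second quantification.

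Both carrier genes were abundant. Mpc1 (chr17:8282904-8297661, plus strand, mm10) stood at 148.45 TPM in replicate 1 and 108.02 TPM in replicate 2, a mean of 128.2 ± 28.6 TPM. Mpc2 (chr1:165460637-165481214, plus strand) stood at 168.49 TPM in replicate 1 and 147.55 TPM in replicate 2, a mean of 158.0 ± 14.8 TPM. Their ranges over the hearts overlapped, although Mpc2 was the higher in each heart. Among the 11854 expressed nuclear protein-coding genes, Mpc2 ranked 423 and Mpc1 ranked 520. The log2 ratio of Mpc1 over Mpc2 was -0.18 in replicate 1 and -0.45 in replicate 2. The protein works as a pair of the 2 subunits, and RNA levels say nothing of subunit amounts.

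Which carrier gene was higher depended on which transcripts were summed. Mpc2-201 is the single transcript of Mpc2 annotated as protein-coding, and it held 57.8% ± 2.12 of the TPM of the gene. Mpc2-203, a processed transcript of 493 bases, held 40.7% ± 2.39, although 84.0% of its bases lie in exons of Mpc2-201. With protein-coding transcripts alone, Mpc1 stood at 141.5 TPM in replicate 1 and 103.3 TPM in replicate 2, and Mpc2 at 99.93 and 83.08 TPM. The mean log2 ratio of Mpc1 over Mpc2 was then 0.41, the opposite sign to the -0.32 over all transcripts.

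Reads of Mpc1 were also shared with a near-identical copy. Mpc1-ps is a processed pseudogene of 330 bases (chr12:110858565-110858894, minus strand) that matches Mpc1-208, the leading Mpc1 transcript, at 329 of 330 bases. The match spans bases 130 to 459 of Mpc1-208, which is its whole coding sequence with the stop codon. The difference is G170A, counted from the 5′ end of Mpc1-208. The first 81 bases of the match are printed for each gene because they hold the sole base that separates the 2 genes over this stretch, printed as a capital.

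Mpc1-208: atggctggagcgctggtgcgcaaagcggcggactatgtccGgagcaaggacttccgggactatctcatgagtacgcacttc

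Mpc1-ps-201: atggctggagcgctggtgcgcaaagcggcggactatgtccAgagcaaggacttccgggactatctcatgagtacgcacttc

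The quantifications divided these reads differently. In the first, Mpc1-ps had 387.53 expected counts in replicate 1 and 396.78 in replicate 2, which was 11.54% and 13.23% of the reads of both genes. In the second, Mpc1-ps was listed at 0 in both hearts. Mpc1 itself had 2970.47 expected counts in replicate 1 and 2603.22 in replicate 2 in the first quantification, against 3185 and 2838 in the second. With the pseudogene's counts added, the first quantification gave Mpc1 3358 counts in replicate 1 and 3000 in replicate 2, at 167.8 and 124.5 TPM. The log2 ratio of Mpc1 over Mpc2 then averaged -0.13. How much of this RNA came from the pseudogene was not tested.

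The E1 chains were the most abundant of the 10 genes and close to each other. Pdha1, on the X chromosome (chrX:160122209-160138413, minus strand), which male mice carry in a single copy, stood at 332.22 TPM in replicate 1 and 297.04 TPM in replicate 2, a mean of 314.6 ± 24.9 TPM. Pdhb (chr14:8165996-8173025, minus strand) stood at 318.10 TPM in replicate 1 and 266.21 TPM in replicate 2, a mean of 292.2 ± 36.7 TPM. The alpha and beta chains combine in equal numbers in the enzyme. Their log2 ratio, Pdha1 over Pdhb, was 0.06 in replicate 1 and 0.16 in replicate 2. In the second quantification it was -0.33 in replicate 1 and -0.32 in replicate 2, with Pdhb the higher. Pdha2, the autosomal E1 alpha gene used in male germ cells, was listed at 0 in both hearts, as were the other 3 testis markers.

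Dlat, the E2 gene (chr9:50634633-50659780, minus strand), stood at 133.32 TPM in replicate 1 and 116.66 TPM in replicate 2, a mean of 125.0 ± 11.8 TPM. Both E1 genes were over 2-fold above it in both hearts, with Pdha1 over Dlat at a log2 ratio of 1.32 in replicate 1 and 1.35 in replicate 2. Dld, the E3 gene shared with sister complexes, averaged 145.3 TPM, and the log2 ratio of Dlat over Dld was -0.20 in replicate 1 and -0.24 in replicate 2. Pdhx, which binds E3 to the core, averaged 52.69 TPM, and Dlat over Pdhx was 1.27 in replicate 1 and 1.21 in replicate 2. These ratios differed by less between the hearts than between the quantifications. In the second, Pdha1 over Dlat averaged 0.36, Dlat over Dld 0.29 and Dlat over Pdhx 2.29.

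Dlat was the gene on which the quantifications differed most. It averaged 125.0 TPM in the first and 295.1 TPM in the second, over 2-fold apart in both hearts, as were 12.6% of the 15568 genes compared. All 10 genes were higher in the second quantification, and so was the typical gene, whose median fold of second over first was 1.362. At 1.5-fold, 5 of the 10 genes were called, against 29.4% of genes compared. With ratios centred on their median, none of the 10 was over 2-fold apart.

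The reads of Dlat barely differed where its TPM did. Dlat had 8655 expected counts in replicate 1 and 8826 in replicate 2 in the first quantification, against 9439 and 9697 in the second. The coding transcript Dlat-201, of 4035 bases, stood at 82.19 TPM in replicate 1 and 70.30 TPM in replicate 2 in the first, against 97.71 and 87.77 TPM in the second. Most of the difference lay in 2 short retained-intron transcripts. Dlat-206, of 526 bases, had 15.43 expected counts in replicate 1 and 35.10 in replicate 2 in the first, against 389.9 and 406.1 in the second. In TPM it stood at 1.49 in replicate 1 and 2.85 in replicate 2 in the first, against 92.39 and 85.73 in the second, and 76.8% of its bases lie in exons of Dlat-201. Dlat-203 stood at 4.36 TPM in replicate 1 and 2.33 TPM in replicate 2 in the first, against 81.22 and 49.76 TPM in the second. Dlat-202, a processed transcript of 770 bases, did not follow them, at 41.44 TPM in replicate 1 and 38.61 TPM in replicate 2 in the first, against 32.44 and 59.17 TPM in the second.

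Transcripts not annotated as protein-coding held few reads but much of the TPM of several genes. In Dlat they held 39.0% ± 0.982 of the TPM and 9.44% ± 0.333 of the reads. In Pdk1 they held 42.7% ± 1.78 of the TPM and 14.3% ± 1.27 of the reads, and in Pdk4 25.3% ± 0.467 of the TPM and 3.22% ± 0.0866 of the reads. The median over expressed nuclear protein-coding genes was 11% of the TPM, and 12.8% in the second quantification. For Pdk4 the second quantification gave 6.81%, below that median, while for Dlat it gave 68.6% and for Pdk1 54.4%. Mpc2 differed from these in that such transcripts also held 28.2% ± 0.854 of its reads. In Pdha1, Pdhb, Mpc1 and Pdk3 they held between 1.03% and 6.24% of the TPM in the first quantification, and Pdp1 has none.

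**Figure D2:**
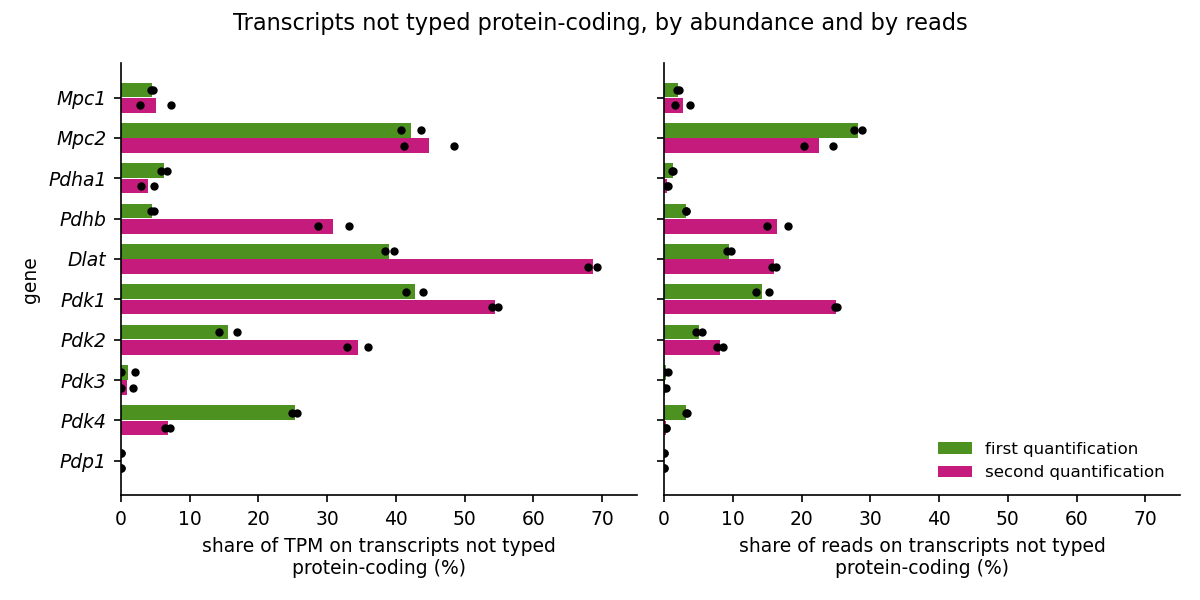
Share of the TPM (left) and of the reads (right) of each gene on transcripts not annotated as protein-coding, in percent, with bars for the mean of the 2 hearts in the first and the second quantification and points for each heart. For Dlat the share of TPM is 39.0% in the first and 68.6% in the second quantification, while the share of reads is 9.44% and 16.0%.

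Of the 4 kinase genes, Pdk4, Pdk2 and Pdk1 were within a few-fold of each other and Pdk3 was far below. Pdk2 (chr11:95026258-95041354, minus strand), the widely expressed kinase, stood at 83.82 TPM in replicate 1 and 83.75 TPM in replicate 2, a mean of 83.78 ± 0.0495 TPM. Pdk1 (chr2:71873224-71903858, plus strand), a target of the hypoxia factor HIF-1 that is abundant in heart, stood at 60.04 TPM in replicate 1 and 57.83 TPM in replicate 2, a mean of 58.94 ± 1.56 TPM. Pdk3, on the X chromosome (chrX:93764607-93832201, minus strand), stood at 14.08 TPM in replicate 1 and 12.91 TPM in replicate 2, a mean of 13.5 ± 0.827 TPM. These 3 kinases kept their order in both hearts, with a log2 ratio of Pdk2 over Pdk1 of 0.48 in replicate 1 and 0.53 in replicate 2. Pdk1 over Pdk3 was 2.08 in replicate 1 and 2.15 in replicate 2.

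Pdk4 (chr6:5483351-5496309, minus strand) was the exception. It stood at 128.10 TPM in replicate 1 and 65.18 TPM in replicate 2, a mean of 96.64 ± 44.5 TPM. It was the highest kinase in replicate 1 and came after Pdk2 in replicate 2. The log2 ratio of Pdk4 over Pdk2 was 0.61 in replicate 1 and -0.36 in replicate 2, so the mean of 0.13 describes neither heart. The second quantification gave 0.19 in replicate 1 and -0.93 in replicate 2, with the same change of places with Pdk2. There Pdk4 was also below Pdk1 in replicate 2, at 72.9 TPM against 89.8 TPM for Pdk1.

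Summed over the 4 kinases, the level was 286.0 TPM in replicate 1 and 219.7 TPM in replicate 2. Pdk4 made up 44.78% of that sum in replicate 1 and 29.67% in replicate 2. Pdk2 made up 29.30% in replicate 1 and 38.13% in replicate 2, and Pdk1 made up 20.99% and 26.33%. Pdk3 held 4.922% in replicate 1 and 5.877% in replicate 2. Shares in one heart add up to the whole, so a larger share of Pdk4 lowers the other 3.

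**Figure D3:**
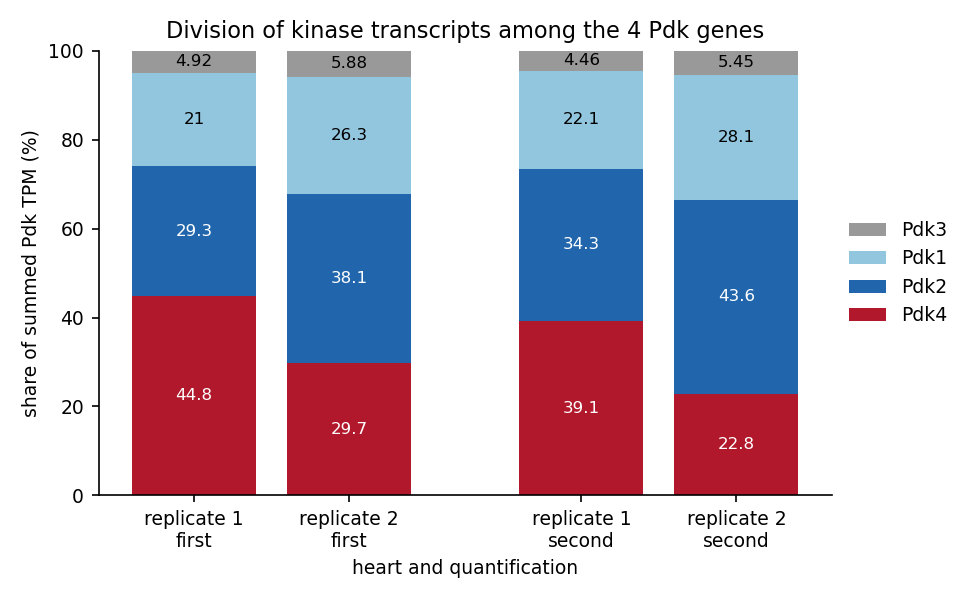
Share in percent of the summed TPM of Pdk1, Pdk2, Pdk3 and Pdk4 held by each kinase gene, 1 bar per heart in the first and the second quantification. Pdk4 leads in replicate 1 (44.78% in the first quantification, 39.15% in the second) and Pdk2 leads in replicate 2 (38.13% and 43.63%).

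By counts, which do not divide by length, the kinases ranked otherwise. Pdk4 then held a mean of 37.02% of the kinase reads, Pdk1, whose main transcript has 5185 bases, 32.60%, and Pdk2 26.00%. The lead changed between the hearts here too. Pdk4 had the most counts in replicate 1, where Pdk1 had 4903, and Pdk1 had the most in replicate 2, with 5732. Pdk4 had more counts than Pdk2 in both hearts, 7688 against 3930 in replicate 1 and 4586 against 4556 in replicate 2, so its change of places with Pdk2 is seen per length and not in raw counts. With protein-coding transcripts alone, the mean TPM share was 37.78% for Pdk2, 37.02% for Pdk4, 18.08% for Pdk1 and 7.116% for Pdk3. The log2 ratio of Pdk4 over Pdk2 then averaged -0.05, against 0.13 over all transcripts.

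Differences between the hearts were also taken from normalised counts, as log2 ratios of replicate 1 over replicate 2 after TMM scaling. This scaling was used since TPM over the 16271 genes that passed the filter on low counts ran higher in replicate 1 by a median log2 of 0.13, against 0.003 after TMM. All 10 genes passed that filter. With 1 heart a side there is no test, and the 95% intervals below are exact binomial ones that cover counting error only. None of the 10 genes was over 2-fold apart, against 3.06% of the filtered genes. At 1.5-fold, 1 of the 10 was called, Pdk4, against 12.3% of the filtered genes.

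Pdk4 had 7688 expected counts in replicate 1 and 4586 in replicate 2. Its log2 ratio was 0.86, an interval of 0.81 to 0.91 and a fold of 1.817, and 4.93% of the filtered genes lay at least as far apart. Restricted to the 12062 genes whose mean count reached 100, 1.77% did. The ratio was 0.80 in the second quantification and 0.97 as a ratio of TPM. Both Pdk4-201, the full-length coding transcript, and the retained-intron Pdk4-202, of 412 bases, were higher in replicate 1. Pdk4-201 stood at 89.63 TPM in replicate 1 and 44.99 TPM in replicate 2, and Pdk4-202 at 31.95 and 16.69 TPM. The red cell and fibroblast markers were lower in replicate 1, and their part in the Pdk4 difference was not tested. The 8 heart muscle markers had a median log2 ratio of 0.04 after TMM, with 5 higher in replicate 1. They ran from -0.32 for Actc1 to 1.15 for Nppa, the only one over 2-fold apart. They summed to 33449 TPM in replicate 1 and 30372 TPM in replicate 2, a gap close to the general shift of TPM. No white fat, skeletal muscle, lung or testis marker was expressed in both hearts. Of the 5 liver markers, 2 were expressed, at low levels. Alb stood at 2.00 TPM in replicate 1 and 1.69 TPM in replicate 2, and Ahsg at 4.08 and 4.13 TPM. White fat markers summed to 0.22 TPM in replicate 1 and 4.42 TPM in replicate 2, and Ucp1, which defines brown fat, was listed at 0 in replicate 1 and at 8.94 TPM in replicate 2. Of the 9 brown fat markers, 4 were expressed, with a summed level over the list of 944.4 TPM in replicate 1 and 856.8 TPM in replicate 2 that came mostly from Cox8b and Cox7a1, which heart muscle also uses.

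The other 9 genes lay between -0.11 and 0.31. Mpc1 came next to Pdk4 with a log2 ratio of 0.31 (0.23 to 0.38), a difference reached or passed by 32.03% of the filtered genes. Pdhb was at 0.13 (0.09 to 0.17), Mpc2 at 0.11 (0.04 to 0.18), Dlat at 0.09 (0.05 to 0.13) and Pdha1 at 0.04 (0.01 to 0.07). Pdk1 was at -0.11 (-0.16 to -0.05) and Pdk2 at -0.10 (-0.16 to -0.03). For Pdp1 at 0.03 (-0.09 to 0.15) and Pdk3 at -0.03 (-0.18 to 0.12) the interval held 0, so a difference was not detectable at this depth. In all, 7 of the 10 genes were higher in replicate 1, against 50.4% of the filtered genes and 47.3% of the filtered nuclear protein-coding genes. Their median log2 ratio was 0.06, against 0.00 over all filtered genes, and the 3 lower genes were Pdk1, Pdk2 and Pdk3. Since most of these ratios are small, the count moved with the scaling. Scaled to the spike-ins, 5 of the 10 genes were higher, against 44.2% of the filtered genes, and Pdha1 (0.00) and Pdp1 (-0.02) were no longer among them. As TPM ratios all 10 were higher, with Pdk2 at 0.00, against 69% of the filtered genes. Pdk4 was higher under each of these, at 0.82 scaled to the spike-ins.

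**Figure D4:**
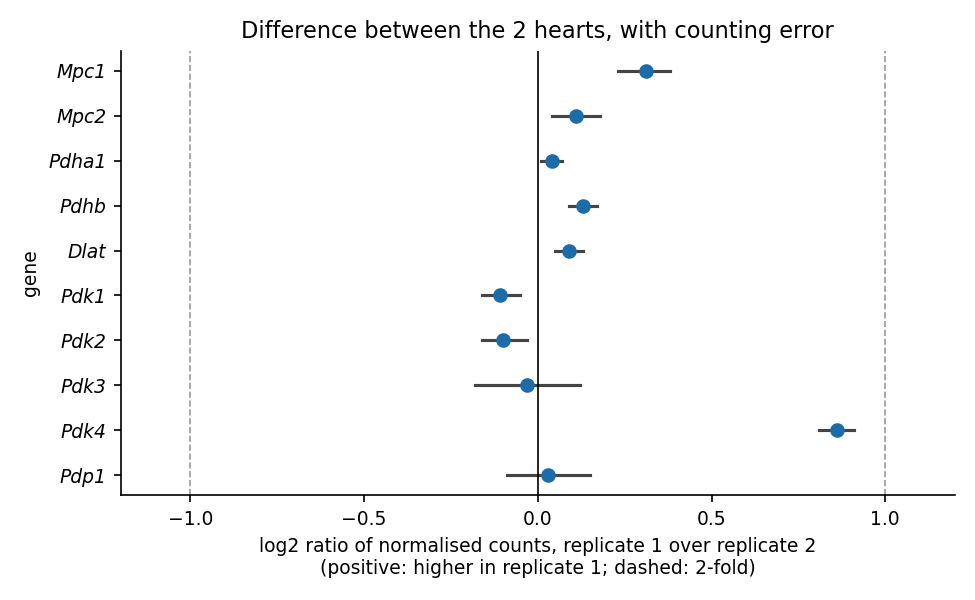
Log2 ratio of normalised counts, replicate 1 over replicate 2, for each gene (points) with its exact 95% counting interval (lines). Dashed lines mark 2-fold. Pdk4 lies at 0.86 and the other 9 genes lie between -0.11 and 0.31.

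The stretches before the RefSeq start sites of Pdk4 and Pdk2 (GRCm38.p6) are shown because these kinases changed places between the hearts. Each runs from 150 to 32 bases before the start, read 5′ to 3′ on the minus strand of chr6:5496310-5496428 for Pdk4 and chr11:95041403-95041521 for Pdk2. Capitals mark matches, on either strand, to the motifs searched: AGGTCA, a half-site of nuclear receptors, GTAAACA, a core of FOXO sites, ACGTG, the core of HIF sites, TATAAA, the TATA box, and CCAAT, the CCAAT box, which reads ATTGG on the other strand.

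Pdk4: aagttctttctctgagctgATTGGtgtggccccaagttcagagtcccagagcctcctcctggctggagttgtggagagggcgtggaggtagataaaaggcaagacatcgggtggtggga

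Pdk2: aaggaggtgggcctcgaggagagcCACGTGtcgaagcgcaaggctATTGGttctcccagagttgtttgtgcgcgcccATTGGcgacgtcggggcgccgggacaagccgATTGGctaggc

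In the full windows of 300 bases around the starts, Pdk4 held 1 CCAAT box, on the reverse strand, at -131, and none of the other 4 motifs. RefSeq gives Pdk2 a pair of windows, of which the stretch shown is from the upstream one. It held 3 CCAAT boxes at -105, -73 and -42, and ACGTG at -126 and -125, which are the 2 strands of 1 palindrome that overlap. Of all 32851 RefSeq windows of this length, 37.4% held CCAAT, 19.6% ACGTG, 16.3% AGGTCA, 13.6% TATAAA and 3.65% GTAAACA. The Pdk4 window had 12 CpG and the upstream Pdk2 window had 25, against a median of 7 over all windows. The other Pdk2 window (chr11:95040826-95041125) had 13 CpG and none of the 5 motifs. A match is a description of letters, and the missing motifs say only that they are not in this window. RefSeq windows were found for 9 of the 10 genes.

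Pdp1 (chr4:11958184-11966452, minus strand) stood at 16.49 TPM in replicate 1 and 16.21 TPM in replicate 2, a mean of 16.35 ± 0.198 TPM. The summed kinases exceeded it 17.25-fold in replicate 1 and 13.47-fold in replicate 2, at log2 ratios of 4.11 and 3.75. The second quantification gave a mean log2 ratio of 4.19 and protein-coding transcripts alone gave 3.52. Pdp2, the other catalytic phosphatase gene, was lower still, at 3.42 TPM in replicate 1 and 2.28 TPM in replicate 2. Pdpr, the regulatory subunit, stood at 28.21 TPM in replicate 1 and 22.80 TPM in replicate 2. These are RNA levels per length and not enzyme activities.

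The quantifications did not pick the same main transcript for Pdp1. All 6 of its transcripts are protein-coding. In the first quantification the reads were spread, with Pdp1-202 at 27.5% ± 6.82, Pdp1-204 at 22.7% ± 7.27, Pdp1-201 at 19.9% ± 14.6 and Pdp1-205 at 1.5% ± 2.14 of the TPM. The leading transcript was Pdp1-202 in replicate 1 and Pdp1-201 in replicate 2, at 32.3% and 30.3%. In the second quantification, Pdp1-205 held 83.6% ± 0.373 and Pdp1-202 was listed at 0. The gene total differed far less than its division, at 1053 expected counts in replicate 1 and 1119 in replicate 2 in the first, against 1073 and 1100 in the second. Pdp1-205 holds all 1689 coding bases of Pdp1-202 in a coding sequence of 1791 bases, and 93.4% of its length lies in exons of Pdp1-202.

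For the other 9 genes the leading transcript was the same in both quantifications, as it was for 75.3% of expressed nuclear protein-coding genes with more than 1 transcript. For Dlat the lead was narrow in the second, with Dlat-201 at 31.4% and Dlat-206 at 30.17%, against 60.95% and 1.78% in the first. The share of the leading transcript was highest in Pdk3, where Pdk3-201 held 99.0% ± 1.46, and in Pdhb, where Pdhb-201 held 95.4% ± 0.313. The second quantification gave Pdhb-201 69.1% and the retained-intron transcript Pdhb-207 24.6%, against 2.89% for Pdhb-207 in the first. Pdk2-205, a processed transcript of 661 bases with 48.6% of its length in exons of Pdk2-201, likewise held 0.69% of Pdk2 in the first and 30.4% in the second. Pdk4-203, a shorter protein-coding transcript, held 5.24% ± 0.208 in the first and 16.3% ± 6.83 in the second.

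The other transcripts with 10% or more of a gene in either quantification were mostly processed transcripts. Pdk1-206 held 27.6% ± 3.43 of Pdk1 in the first and 28.6% in the second, beside 57.3% and 45.6% for the coding Pdk1-201. Pdk1-208, which lies wholly in exons of Pdk1-201, held 8.30% in the first and 22.1% in the second. Pdk2-204 held 13.5% ± 1.76 of Pdk2 in the first and 2.66% in the second, so the quantifications placed reads on different short transcripts of that gene. Dlat-202 held 32.1% ± 1.42 of Dlat in the first and 15.7% in the second, and Dlat-203 held 2.63% and 22.0%. Of the coding Pdp1 transcripts, Pdp1-206 held 16.1% ± 5.57 in the first and was listed at 0 in the second, and Pdp1-203 held 12.2% ± 3.91 and 10.04%. The leading coding transcript held 92.9% of Mpc1 (Mpc1-208), 93.8% of Pdha1 (Pdha1-201), 84.4% of Pdk2 (Pdk2-201) and 69.5% of Pdk4 (Pdk4-201) in the first quantification.

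Another pseudogene, Gm6123 (chr1:4771131-4772199, plus strand), matches Pdhb-201 at 97.0% over 1079 aligned bases. It had 38.83 expected counts in replicate 1 and 49.47 in replicate 2 in the first, against 162.7 and 186.9 in the second. Pdhb itself had 10795.17 in replicate 1 and 10670.53 in replicate 2 in the first. Genes that overlap the 10 on the chromosome held few reads, the most being Map3k15, on the strand opposite Pdha1, with 39 counts in replicate 1 and 36 in replicate 2.

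Genes around this route were read from a list of 35 that holds their partners, cofactor supply, other pyruvate reactions, sister complexes and regulators. Of these, 34 were expressed, against 53.9% of protein-coding genes, and none was over 2-fold apart between the hearts, against 3.06% of the filtered genes. After TMM, 23 were higher in replicate 1 and 11 lower, against 50.4% of the filtered genes higher, with a median log2 ratio of 0.06. Ldhb and Ldha, which interconvert pyruvate and lactate, averaged 625.4 and 493.6 TPM, and Pkm, which makes pyruvate, averaged 518.2 TPM. Those 3 stood above every gene of the pyruvate dehydrogenase route.

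The largest ratios in that list were those of genes lower in replicate 1. Lias, which makes the lipoyl groups that Dlat carries, stood at 21.64 TPM in replicate 1 and 31.97 TPM in replicate 2, a log2 ratio of -0.65. Slc16a1, a transporter of lactate and pyruvate across the plasma membrane, stood at 55.92 TPM in replicate 1 and 80.06 TPM in replicate 2, also -0.65. Sirt4, which removes lipoyl groups from Dlat, was at 0.59 (0.26 to 0.93), with 8.35 TPM in replicate 1 and 4.40 TPM in replicate 2. Its protein-coding transcripts alone stood at 2.47 TPM in replicate 1 and 1.90 TPM in replicate 2. Of the 7 regulators known for Pdk genes, 4 were higher in replicate 1. Ppargc1a, a coactivator of mitochondrial genes, was at -0.63 and Hif1a at -0.57. The fatty acid receptors Ppara and Ppard were at -0.21 and 0.36. The remaining regulators, all higher in replicate 1, ran from 0.05 to 0.30.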

How the data were processed

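Per the labels, total RNA (300 ng, Norgen tissue kit, ERCC spike-ins, a spike profile for stranded ribosome-reduced libraries) came from 2 hearts. As deposited, the first quantification gives an expected count and a TPM per gene and per transcript under RSEM column names. The second, also deposited by the authors, gives an estimated count and a TPM per transcript under kallisto column names, which were summed per gene. Notes deposited beside the files give mm10 and GENCODE M21, and state no tool version. In the first gene tables the effective length was the length less a median of 99 bases. In the second tables it was the length less 342 bases (replicate 1) or 352 bases (replicate 2) for the first transcript listed. It was read for that transcript alone, so how short transcripts weigh in TPM was not tested. The parental alleles were not told apart.

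Spike-ins (0.588% of counts in replicate 1, 0.545% in replicate 2) and 26249 rows that name no gene (6.31e-06% and 1.11e-05%) were left out of library sizes. Expected counts were rounded, filtered with filterByExpr and scaled by TMM in edgeR 4.0.16 (R 4.3.3, prior count 2). The ratio step was also run on simulated counts. Both simulated libraries had the same means apart from a set of changed genes, so that run could not test scaling for unlike depth or composition. The common biological coefficient of variation was 15.2%. DESeq2 1.42.0 size factors were an alternative. Ratios of TPM used a pseudocount of 0.1. Counting intervals are exact binomial at 95%. PCR copies are not independent molecules, so the intervals cover counting error only. Copies were searched with BLAST 2.17.0. The rest used pandas 2.3.3, SciPy 1.17.1, NumPy 2.4.6 and matplotlib 3.10.9 under Python 3.11.15.

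No test across samples was run, since an exact sign-flip test on 2 hearts cannot give a two-sided p below 0.5. By the rule for names, all 10 genes are given, with transcripts at 10% or more of a gene in either quantification, copies, overlapping genes and up to 15 of the list around the route. The genes and lists were chosen with earlier results of these data known. Of the genes looked up beside Pdk4 after its values were seen, 1 is not reported here.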

Additional observations from a re-analysis of the deposited data

How the results depend on the processing

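No paired analysis was possible because both libraries belong to 1 group. Leaving out a heart leaves the value of the other, and with 2 values this always lies within 1 SD of the mean, so it says nothing of stability. The share of Pdk4 then ran between 29.67% and 44.78%, and Pdk4 over Pdk2 between -0.36 and 0.61, so its sign rests on which heart is kept. All 10 genes were expressed at a TPM minimum of 0.5 and of 5. The between-heart ratio of Pdk4, 0.86, was 0.97 as a TPM ratio and 0.80 in the second quantification. At 1.5-fold in place of 2-fold, 1 gene was called between hearts and 5 between quantifications, and centring left 0 between quantifications. By counts, the mean kinase shares were 32.60% for Pdk1, 26.00% for Pdk2 and 4.374% for Pdk3. With protein-coding transcripts alone they were 18.08% for Pdk1, 37.78% for Pdk2, 7.116% for Pdk3 and 37.02% for Pdk4. The mean log2 ratios were then 3.52 for summed kinases over Pdp1, 1.95 for Pdha1 over Dlat and 0.41 for Mpc1 over Mpc2. Pdk4 over Pdk2 averaged -0.05, the opposite sign to the 0.13 over all transcripts. The second quantification gave 4.19 for the kinases over Pdp1, -0.33 for Pdha1 over Pdhb and 0.36 for Pdha1 over Dlat. Adding the Mpc1-ps reads, an alternative chosen after seeing the data, gave -0.13 for Mpc1 over Mpc2. In all, the second quantification moved 31 values and left 20, and protein-coding transcripts alone moved 23 and left 15. Moved means by more than the spread between the hearts, or 1.5 times for counts of genes. For ratios between hearts it means outside the counting interval. Some outcomes with protein-coding transcripts alone were fixed in advance. Mpc2-201, Pdha1-201, Pdhb-201, Dlat-201, Pdk1-201, Pdk2-201 and Pdk3-201 are the only coding transcripts of their genes, so their shares became 100%. Pdp1 has coding transcripts only, so its level and shares could not move. DESeq2 size factors, no filter on low counts and a prior count of 0.5 moved none of the 11 between-heart results, while spike-in scaling moved 3 (Pdha1 to 0.00, Pdhb to 0.09 and Dlat to 0.04) and TPM ratios moved 9. Rescaling TPM over nuclear protein-coding genes raised all 10 levels alike, Mpc1 to 289.4 TPM. The cause of the moves was not tested. With 2 hearts no SD is precise. Among the 10 genes the counting interval held 0 for Pdk3 and Pdp1 alone. Such an interval covers counting error only, so leaving out 0 does not establish a difference between animals.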

Other observations

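Genes known as targets of fatty acid signalling or of fasting were looked up beside Pdk4 after its difference between the hearts had been seen, so they are values and no support. Ucp3, a mitochondrial carrier of muscle, had a log2 ratio of replicate 1 over replicate 2 of 1.57, with 23.02 TPM in replicate 1 and 6.94 TPM in replicate 2. Angptl4, an inhibitor of lipoprotein lipase, was at 1.15, with 30.23 TPM in replicate 1 and 12.22 TPM in replicate 2. Most of that TPM lay on transcripts not annotated as protein-coding, and its coding transcript alone stood at 5.23 TPM in replicate 1 and 2.46 TPM in replicate 2. Txnip, which lowers glucose uptake, was at 1.02 and Fbxo32, a muscle ubiquitin ligase, at 0.80. Cpt1a, which loads fatty acids for import, was at 0.02. Nppa, an atrial peptide hormone among the heart muscle markers, was at 1.15, with 1620.37 TPM in replicate 1 and 665.09 TPM in replicate 2.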
